A study of Mus musculus with 9 samples.

Results

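Interferon-inducible GBP and IRG GTPases were examined in RAW264.7 cells, a mouse macrophage line, after siRNA transfection and stimulation with lipopolysaccharide (LPS). The 10 genes Gbp2, Gbp3, Gbp5, Gbp7, Gbp8, Irgm1, Irgm2, Igtp, Iigp1 and Ifi47 were taken by the symbol that their Ensembl identifier has in GENCODE M21, and all 10 were found among the 28137 identifiers of the deposited expression values. RNA-seq covered 9 libraries, 3 with the control siRNA (NC), 3 with siRNA against SFRP2 and 3 with siRNA against RAB6A. The study compared SFRP2 siRNA with NC in cells polarized toward the inflammatory (M1) state, and the RAB6A siRNA group was deposited beside them.

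All 3 groups shared the cell line, the transfection and the stimulation, and differed in the siRNA. According to the labels, 60 nM siRNA was given with a Lipofectamine reagent for 6 h, the cells then stayed in complete medium for 12 h, and LPS at 100 ng/ml followed for 24 h. The labels name LPS alone, whereas the study's methods give another siRNA dose, reagent and medium, and the study describes the sequenced NC and SFRP2 siRNA cells as polarized with IFN-γ beside LPS. IFN-γ is a strong inducer of these genes. The RAB6A siRNA group is not described there. RAW264.7 is 1 transformed line. The SFRP2 siRNA libraries are titled siRNA-1 to siRNA-3, and the study's list of siRNAs gives different sequences under the same names. Whether each library received 1 of them is not stated, so the spread of this group may include a difference between siRNAs. Every title also carries 6H, which no label explains. No label says whether libraries of a group come from separate cultures, so p-values measure the spread between these libraries only.

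GBPs (guanylate-binding proteins) and IRGs (immunity-related GTPases) are made by cells that have met interferon, and they defend the cell interior against bacteria and parasites. GBPs coat vacuoles and bacterial surfaces and open LPS to caspase-11, the mouse sensor of LPS in the cytosol. Effector IRGs load onto the vacuole of a parasite and break its membrane, while regulatory IRGs hold the effectors inactive on the cell's own membranes. Interferon is known to reach such genes through transcription factors that bind GAS and ISRE elements of promoters.

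The promoters are shown first, because GAS and ISRE elements lie in promoters. RefSeq promoters on GRCm38.p6 (250 bases before to 50 after the start) were matched for 8 of the 10 genes, with 9 promoters in all. Gbp8 and Iigp1 had no matched promoter and were not searched. Each of the 9 promoters was searched on both strands for the ISRE core GAAANNGAAA and for GAS, TTCNNNGAA. An ISRE core lay in 7 of the 9 promoters, against 3.44% of all 32851 promoters of the same length. GAS lay in 4 of the 9, against 8.3% of all, and both motifs lay in 4, against 0.454% of all. No promoter of Ifi47 held either motif, and neither did the other promoter of Gbp3. A match describes letters of the genome and is not a bound site. The 7 stretches below run 30 bases on the strand that reads the core forwards, with the motifs in capitals. In Gbp3 and Irgm1 the capitals run on into an overlapping core.
Gbp2, chr3:142620599-142620628 (-): tatgcttaagacagtGAAAGTGAAActaaa
Gbp3, chr3:142560000-142560029 (-): tttccagggatctggGAAATAGAAACTGAA
Gbp5, chr3:142496764-142496793 (-): agggttctctaaactGAAATTGAAActaca
Gbp7, chr3:142530278-142530307 (-): tggggatggagaactGAAACTGAAActgca
Irgm1, chr11:48871436-48871465 (-): actagcctgtttcaaGAAATAGAAACCGAA
Irgm2, chr11:58214898-58214927 (+): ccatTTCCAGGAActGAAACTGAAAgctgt
Igtp, chr11:58199507-58199536 (+): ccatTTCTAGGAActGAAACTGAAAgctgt

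Irgm2 and Igtp, both regulatory IRGs, had the same layout, with GAS ending 2 bases before the ISRE core. This layout, chosen after the promoters were seen, was found in 5 of the 32851 promoters (0.0152%). Those were Irgm2, Igtp, the effector IRG genes Tgtp1 and Tgtp2, and Gm12185, which overlaps Tgtp1. Tgtp1 and Tgtp2 are near copies of each other and so are not separate observations. The bases around the motifs are also nearly identical in Igtp and Irgm2, as printed below. Their promoters are therefore not separate observations either. The core lay 34 bases before the start of Igtp, 64 before that of Irgm2, 53 before that of Gbp7, 59 before that of Gbp2 and 165 before that of Gbp5. These starts are those of RefSeq. For Gbp2 and Irgm1, the 60 bases before the RefSeq start, with the cores, lie wholly in GENCODE M21 exons of the same strand. In Gbp7, GAS lay 106 and 87 bases before the start, ahead of the ISRE core rather than beside it. The 120 bases before the start of Igtp, Irgm2 and Gbp7 are printed on the strand of the gene to show these layouts, with GAS and ISRE cores in capitals.
Igtp, chr11:58199436-58199555 (+): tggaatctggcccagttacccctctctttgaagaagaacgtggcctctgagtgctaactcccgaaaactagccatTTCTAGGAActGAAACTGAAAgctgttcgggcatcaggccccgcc
Irgm2, chr11:58214857-58214976 (+): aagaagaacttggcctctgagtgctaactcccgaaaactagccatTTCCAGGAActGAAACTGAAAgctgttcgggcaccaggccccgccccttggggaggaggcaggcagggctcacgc
Gbp7, chr3:142530216-142530335 (+): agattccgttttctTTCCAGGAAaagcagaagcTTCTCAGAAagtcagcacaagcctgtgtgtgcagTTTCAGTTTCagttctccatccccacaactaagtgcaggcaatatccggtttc

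Irgm1, Irgm2 and Igtp are named GMS proteins and the effectors GKS proteins after the P loop, the stretch of the GTPase that holds the phosphates of the nucleotide. This difference is visible in the coding bases of GENCODE M21 transcripts (GRCm38), shown here because it separates the members by role. In Irgm1, Irgm2 and Igtp the 24 bases were identical and held the codon ATG (in capitals) at the place where Ifi47 and the GBPs had a lysine codon, AAG or AAA. The stretch lies in exon 3 of each IRG transcript and in exon 2 of each GBP transcript.
Irgm1, chr11:48866761-48866784 (-): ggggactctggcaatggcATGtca
Irgm2, chr11:58219695-58219718 (+): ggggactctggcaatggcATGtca
Igtp, chr11:58206275-58206298 (+): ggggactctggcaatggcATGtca
Ifi47, chr11:49095648-49095671 (+): gggcagtctgggactggcAAGtcc
Gbp2, chr3:142623826-142623849 (+): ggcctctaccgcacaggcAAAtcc
Gbp5, chr3:142500689-142500712 (+): ggtctttatcgcacaggcAAAtcc
Gbp8, chr5:105050898-105050921 (-): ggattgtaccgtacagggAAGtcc

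The 9 libraries held between 32758729 and 47149258 recovered reads, a number obtained from the steps of the low FPKM values (fragments per kilobase of exon, scaled to library size). RAB6A siRNA libraries had 32758729 to 37833882 reads, SFRP2 siRNA libraries 34743304 to 40562562 and NC libraries 41608379 to 47149258. Reads are mostly the 2 mates of a pair, so they are not independent molecules. Every one of the 10 genes had whole reads in all 9 libraries, from at least 94 reads (Gbp8) to 24885 (Irgm1). Rab6a, the gene targeted in the RAB6A siRNA group, was at 25.7 ± 1.48 FPKM (SD, n = 3) in NC and 20.8 ± 0.445 in the RAB6A siRNA libraries, that is 80.8% of NC (limma, adjusted p = 0.0024). Its log2 fold change of -0.31 was at percentile 35.3 of all genes tested, of which 36.5% were called lower. A fall of this size is thus common in this comparison. Whether other differences of this group follow from a lower Rab6a was not tested. Sfrp2 had 2 reads in each NC library and 2 to 4 in each SFRP2 siRNA library, which is under or near the detection limit, so its knockdown could not be checked and groups are named by their labels. Macrophage markers were present. Of the 10 markers, Mertk alone was under a mean of 0.5 FPKM, and their summed level was 4582 to 5050 FPKM in NC, 4054 to 4383 in SFRP2 siRNA and 3979 to 4142 in RAB6A siRNA libraries. Between RAB6A siRNA and NC, 4 of the 9 macrophage markers tested were called lower and 1 higher, beside 36.5% and 37.6% of all genes tested. The largest log2 fold changes were those of Lyz2 (-2.03), Csf1r (-1.44) and Spi1 (-1.05). B cell and T cell markers (2 of 3 analysed in each list) stayed at or under 0.335 FPKM in every library, and the highest value of any fibroblast or epithelial marker was 1.32 FPKM. The summed fibroblast markers were 0.763 to 1.72 FPKM in NC and 1.28 to 2.04 in RAB6A siRNA libraries, with Col1a2 called higher (1.17). The summed epithelial markers were 0.483 to 1.24 FPKM in NC and 1.001 to 2.83 in RAB6A siRNA libraries. Whether these marker shifts have a part in the results on the GTPases was not tested, and in bulk RNA fewer cells of a type and less RNA per cell cannot be told apart.

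In NC libraries the levels of the 10 genes differed widely. FPKM is scaled to the length of all annotated exons of a gene, such as 2022 bases for Igtp and 6637 for Gbp5. The order between genes therefore depends on the annotation as well. Gbp3 was highest at 112 ± 4.54 FPKM (SD, n = 3), followed by Gbp2 at 97.0 ± 3.34 and Irgm1 at 91.0 ± 1.05. Igtp, Gbp7 and Irgm2 followed at 56.8, 51.9 and 46.3 FPKM. Each of these 6 genes was separate from its neighbour in the order in every library. Gbp5 (31.5 ± 2.06) and Iigp1 (30.1 ± 3.84) overlapped and had no order. Ifi47 was lower at 17.5 ± 0.818 FPKM, and Gbp8, at 0.907 ± 0.0957 FPKM, was close to the filter of 0.5 on mean FPKM. In the SFRP2 siRNA libraries Gbp7 and Igtp changed places and so did Iigp1 and Gbp5, and both pairs overlapped there. In the RAB6A siRNA libraries Gbp2 stood above Gbp3, and Gbp5, Igtp and Irgm1 were neighbours, with Gbp5 overlapping Igtp and Igtp overlapping Irgm1.

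**Figure D1:**
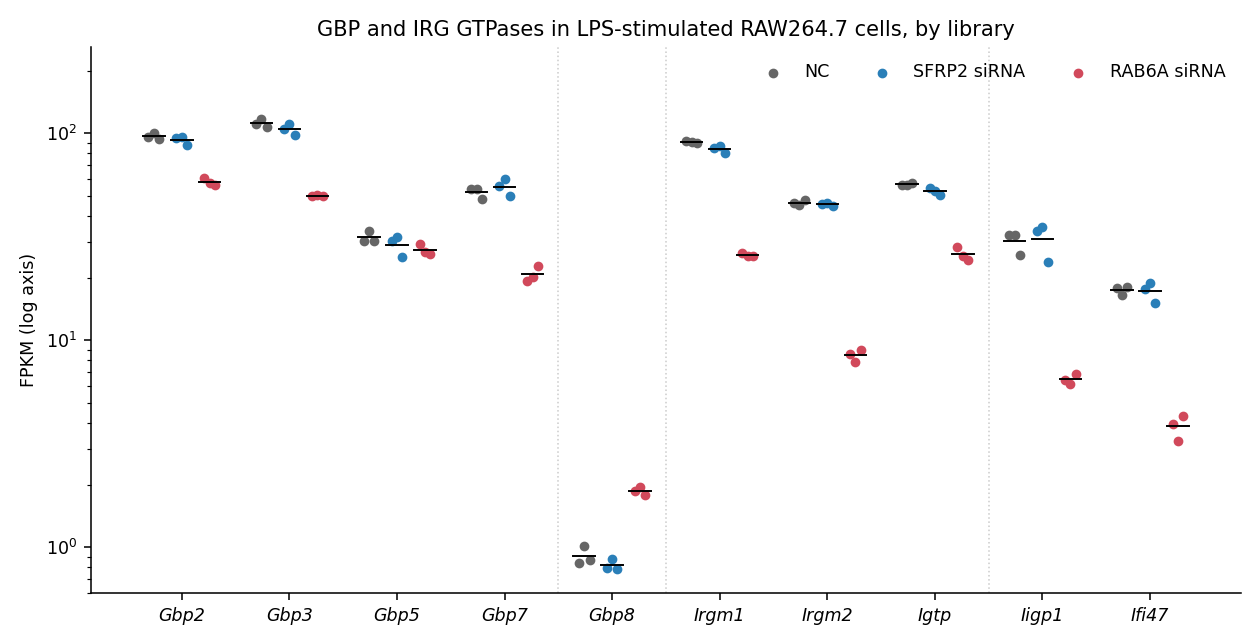
FPKM (log axis) of the 10 GTPase genes in each of the 9 libraries, coloured by siRNA, with a black line at the mean of 3 libraries; dotted lines separate the GBPs of chromosome 3, Gbp8, the GMS-type IRGs and the GKS-type IRGs. RAB6A siRNA libraries lie below the other 6 for every gene except Gbp5, which overlaps the SFRP2 siRNA libraries, and Gbp8, which lies above.

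The GTPase genes were lower in RAB6A siRNA than in NC libraries, with 1 exception. Limma on log2(FPKM + 0.1), a scale that understates the change of low genes, called all 10 genes at an adjusted p under 0.05, 9 of them lower and Gbp8 higher. Over all 12712 genes tested, 36.5% were called lower and 37.6% higher, so that a call by itself is common in this comparison. With an absolute log2 fold change over 1 as a further threshold, 7 of the 10 genes were lower (12.8% of all genes) and 0 were higher (17.3% of all genes). Members near this threshold crossed it under other settings. Gbp8, at 0.97, came to 1.04 with a pseudocount of 0.01 and with voom, to 1.28 with the GC content and length correction and to 1.05 without NC replicate 2, and it was also just past 1 without RAB6A siRNA replicate 3. Gbp3 came to -0.85 with the GC content and length correction and Igtp to -0.99 with quantile normalization. In 9 of the 10 every RAB6A siRNA library lay below every NC library, as did 38.2% of all genes tested. The median log2 fold change of the 10 genes was -1.24, beside 0.03 over all genes tested. The summed level of the 10 genes was 520.6 to 547 FPKM in NC and 225 to 235 in RAB6A siRNA libraries, 42.8% of NC.

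**Figure D2:**
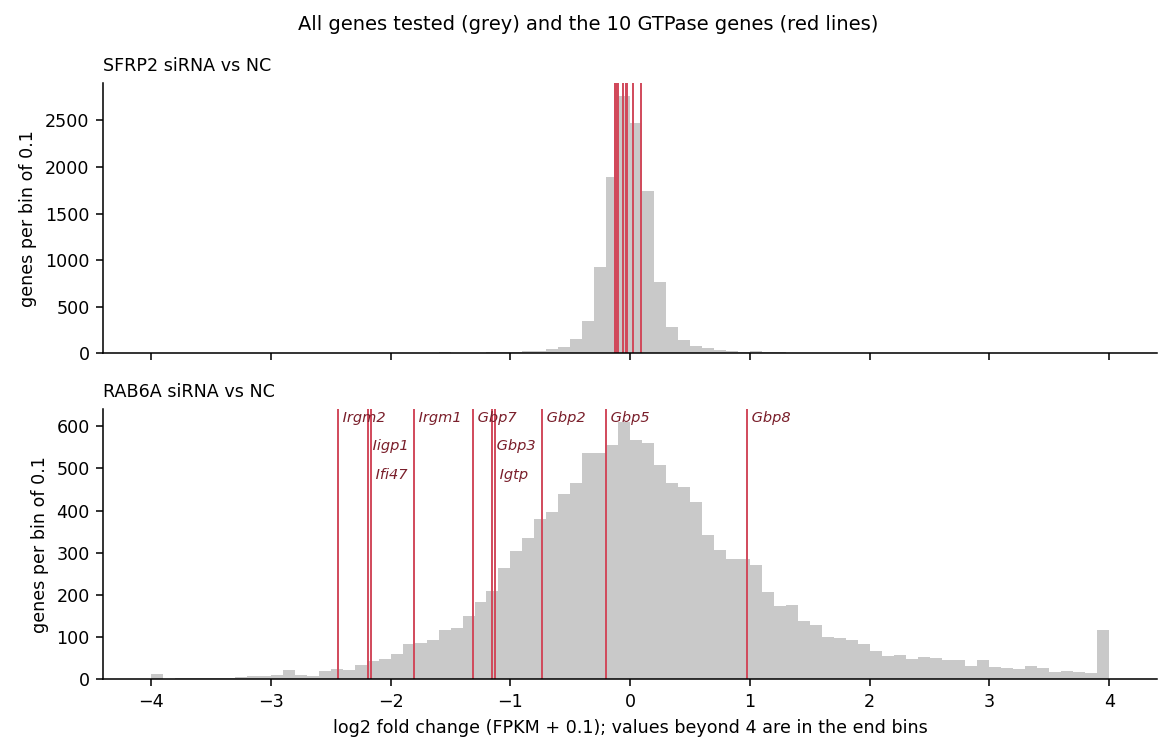
Log2 fold changes of all genes tested (grey bars, genes per bin of 0.1) with the 10 GTPase genes as red lines and values beyond 4 put in the end bins, for SFRP2 siRNA vs NC (top) and RAB6A siRNA vs NC (bottom, genes named). In the top panel the red lines lie in the middle of a narrow distribution, and in the bottom panel they reach from -2.44 (Irgm2) to 0.97 (Gbp8) in a broad one.

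The regulatory IRGs of the GMS type were lower, and not to the same degree. Irgm1 is known to act on host lysosomes and other endomembranes and to be needed for resistance to many intracellular pathogens. Irgm1 was at 92.1, 90.8 and 90.1 FPKM in the NC libraries, 85.0, 86.8 and 80.3 in the SFRP2 siRNA libraries and 26.5, 25.6 and 25.6 in the RAB6A siRNA libraries. The 3 RAB6A siRNA libraries lay within a narrow range, far below the 6 others. Its log2 fold change against NC was -1.81 (SE 0.0483, adjusted p = 6.81e-07), with 28.5% of the NC level left. Irgm2 is known to restrain caspase-11 activation. Irgm2 was at 46.3, 44.9 and 47.7 FPKM in the NC libraries, 45.3, 46.2 and 44.3 in the SFRP2 siRNA libraries and 8.57, 7.85 and 9.0 in the RAB6A siRNA libraries. NC and SFRP2 siRNA libraries overlapped and the RAB6A siRNA libraries stood apart from both. At -2.44 (SE 0.0663, adjusted p = 6.81e-07) and 18.3% of NC it had the lowest log2 fold change of the 10 genes, and 1% of all genes tested lay at or below it. Igtp, also called Irgm3, sits on the endoplasmic reticulum and lipid droplets. It was at 56.1, 56.4 and 57.8 FPKM in the NC libraries, 54.5, 52.9 and 50.4 in the SFRP2 siRNA libraries and 28.2, 25.5 and 24.4 in the RAB6A siRNA libraries. The log2 fold change of Igtp was -1.13 (SE 0.0660, adjusted p = 5.64e-06), with 45.8% left, beside 18.3% for Irgm2, whose promoter has the same motif layout. The 95% intervals were -1.28 to -0.97 for Igtp and -2.59 to -2.28 for Irgm2 and did not overlap, and the difference itself was not tested. The 2 genes share 162 exonic bases on the same strand (8% of Igtp and 4.4% of Irgm2), and 11.8% of the 50-base stretches of Igtp transcripts also occur in other genes, so a part of their reads could be counted to either.

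The effector IRGs of the GKS type kept about as small a share of their NC level as Irgm2. Iigp1 (Irga6) is loaded onto the vacuole of Toxoplasma and takes part in its rupture. It was at 32.4, 32.3 and 25.7 FPKM in the NC libraries, 33.7, 35.3 and 23.9 in the SFRP2 siRNA libraries and 6.44, 6.13 and 6.89 in the RAB6A siRNA libraries. NC and SFRP2 siRNA libraries overlapped, each with replicate 3 lowest, and RAB6A siRNA libraries were all below 7 FPKM. Its log2 fold change was -2.19 (SE 0.102, adjusted p = 2.55e-06), or 21.5% of NC. Ifi47 (Irgd) is another effector of this type. The gene was at 17.8, 16.6 and 18.1 FPKM in the NC libraries, 17.6, 19.0 and 15.1 in the SFRP2 siRNA libraries and 3.95, 3.27 and 4.32 in the RAB6A siRNA libraries. Again the RAB6A siRNA libraries alone stood apart. The log2 fold change of Ifi47 was -2.16 (SE 0.105, adjusted p = 2.88e-06), or 22.0% of NC. The sum over Irgm1, Irgm2 and Igtp was 3.88 to 4.46 times the sum over Iigp1 and Ifi47 in NC libraries, 3.43 to 4.49 times in SFRP2 siRNA libraries and 5.26 to 6.26 times in RAB6A siRNA libraries (FPKM). In this ratio RAB6A siRNA libraries did not overlap the other groups.

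The GBPs of chromosome 3 spread widely. Gbp2 is a prenylated GBP that coats Toxoplasma vacuoles and cytosolic bacteria. Gbp2 was at 95.8, 101 and 94.4 FPKM in the NC libraries, 94.6, 96.1 and 87.7 in the SFRP2 siRNA libraries and 60.7, 57.2 and 56.1 in the RAB6A siRNA libraries. Its log2 fold change in RAB6A siRNA was -0.74 (SE 0.0565, adjusted p = 1.76e-05), with 59.8% left. Gbp3, the highest of the 10 genes in NC, was at 111, 117 and 108 FPKM in the NC libraries, 104, 111 and 98.3 in the SFRP2 siRNA libraries and 49.8, 50.4 and 49.9 in the RAB6A siRNA libraries. The RAB6A siRNA libraries differed by less than 1 FPKM among themselves and were under any other library. Its log2 fold change was -1.16 (SE 0.0526, adjusted p = 2.41e-06), with 44.7% left. Gbp7 has been tied to the assembly of the phagocyte NADPH oxidase. Gbp7 was at 53.6, 53.9 and 48.1 FPKM in the NC libraries, 55.9, 60.5 and 49.6 in the SFRP2 siRNA libraries and 19.3, 20.3 and 22.8 in the RAB6A siRNA libraries. The log2 fold change was -1.31 (SE 0.0803, adjusted p = 6.8e-06), with 40.1% left, and SFRP2 siRNA and NC libraries overlapped. Gm43802 shares 637 exonic bases of Gbp7 (11.3%) on the same strand, so that these reads are uncertain.

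Gbp5 stood apart from its neighbours. It is a prenylated GBP that promotes inflammasome assembly around NLRP3. Gbp5 was at 30.3, 33.8 and 30.2 FPKM in the NC libraries, 30.1, 31.5 and 25.3 in the SFRP2 siRNA libraries and 29.2, 26.7 and 26.0 in the RAB6A siRNA libraries. All RAB6A siRNA libraries were below all NC libraries, by little, and they overlapped the SFRP2 siRNA libraries. The log2 fold change against NC was -0.20 (SE 0.0716, adjusted p = 0.0337) by limma, with 86.8% left. This call is not firm and was lost under most of the other settings tried. Among these were no filter on low values, eBayes without a trend and all 9 libraries fitted jointly. The adjusted p was 0.0596 with the replicate number as a block and 0.547 after quantile normalization, and the direction turned to 0.10 (log2) after correction for GC content and gene length. Without NC replicate 1 the adjusted p was 0.0506, without NC replicate 2 it was 0.118, without RAB6A siRNA replicate 2 it was 0.0907 and without RAB6A siRNA replicate 3 it was 0.0805. The 95% interval of its log2 fold change was -0.37 to -0.04, beside -0.87 to -0.61 for Gbp2, the next in size among these GBPs.

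Gbp8 was the only one of the 10 genes with a higher level in RAB6A siRNA libraries. It lies on chromosome 5 with Gbp4, Gbp6, Gbp9, Gbp10 and Gbp11. It was at 0.838, 1.02 and 0.868 FPKM in the NC libraries, 0.795, 0.874 and 0.786 in the SFRP2 siRNA libraries and 1.87, 1.95 and 1.80 in the RAB6A siRNA libraries. Every RAB6A siRNA library was above every other library. In these libraries Gbp8 was still the lowest of the 10 genes, below Ifi47. Reads were 120 to 165 in NC and 203 to 254 in RAB6A siRNA libraries. Its log2 fold change was 0.97 (SE 0.127, adjusted p = 0.000272), that is 206% of NC. It was higher and called under every alternative, with a log2 fold change from 0.59 (pseudocount of 1) to 1.28 (GC content and length correction). Of the 50-base stretches in its transcripts, 18.1% also occur in other genes, mainly the GBPs beside it, so that its counts are the least certain of the 10.

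**Figure D3:**
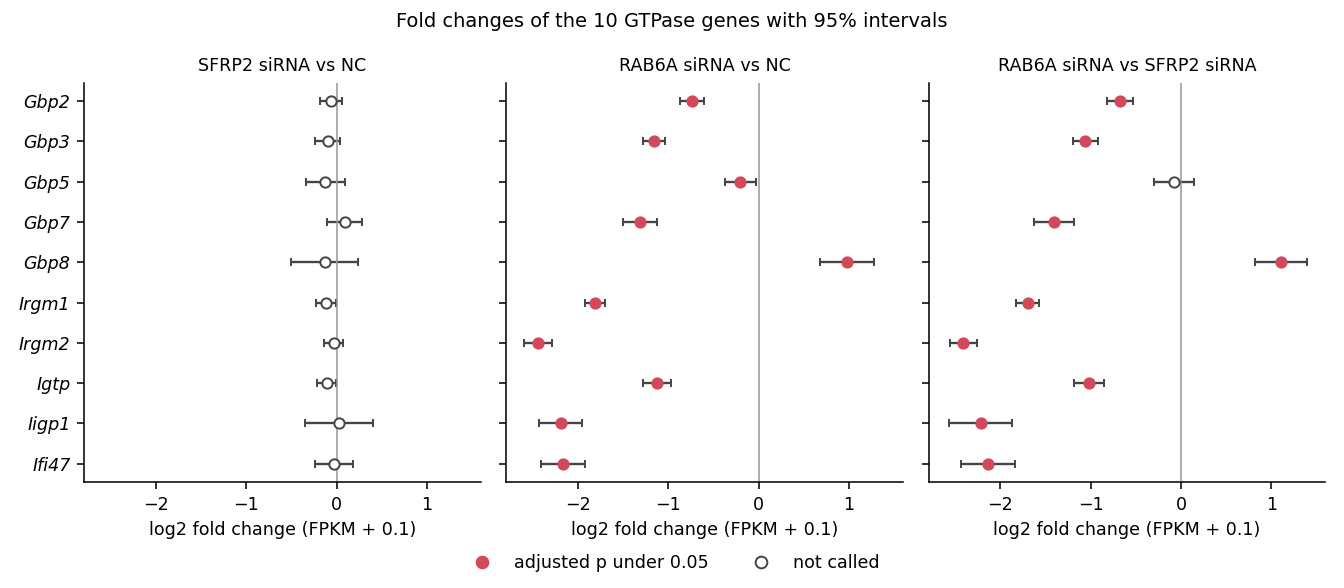
Log2 fold changes (FPKM + 0.1) of the 10 GTPase genes with 95% intervals from limma for the 3 comparisons; filled points passed an adjusted p under 0.05. No gene is filled for SFRP2 siRNA vs NC, all 10 are for RAB6A siRNA vs NC, and all but Gbp5 are for RAB6A siRNA vs SFRP2 siRNA.

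In SFRP2 siRNA against NC, the comparison of the study, no change of these genes passed the test. Limma called none of the 10 genes and none of the 12017 genes tested (0%), with 2220 genes at an unadjusted p under 0.05. Voom on the recovered reads called 41 genes, none of them among the 10. The study itself reported differentially expressed genes for this comparison, more of them lower than higher. It used DESeq2, with thresholds on the adjusted p and on the fold change. DESeq2 was not applied here, and why the counts differ was not tested. Of the 10 genes 8 had a lower mean in SFRP2 siRNA libraries, with a median log2 fold change of -0.08 beside -0.01 over all genes tested. Irgm1 (-0.12 in log2 fold change, unadjusted p = 0.0374, adjusted p = 0.246 by limma) and Igtp (-0.11, unadjusted p = 0.0463, adjusted p = 0.264 by limma) were the 2 with an unadjusted p under 0.05. Their 3 SFRP2 siRNA libraries lay below all 3 NC libraries. Over all genes 10.7% had such an unadjusted p with a lower level, 7.73% with a higher one, and 13.9% had SFRP2 siRNA libraries all below NC. The 2 genes are too few to be set apart from this background. For the other 8 genes the libraries overlapped.

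The intervals show how large a change could have passed unseen. They were narrow for Irgm2 (-0.13 to 0.07), Gbp2 (-0.19 to 0.06) and Gbp3 (-0.24 to 0.04) and wide for Gbp8 (-0.50 to 0.24) and Iigp1 (-0.35 to 0.41), all as 95% intervals of the log2 fold change. A p that misses the threshold does not show that the levels are equal. SFRP2 siRNA replicate 3 was the lowest of its group in all 10 genes, and in 46.4% of the 12549 genes with a mean of at least 0.5 FPKM over the 9 libraries. SFRP2 siRNA replicate 2 was the highest in 9 of the 10. For Ifi47, leaving out replicate 3 turned the log2 fold change from -0.03 to 0.06. For Iigp1 the value moved between -0.08 and 0.20 as single libraries were left out. The summed level of the 10 genes was 476 to 539.7 FPKM in SFRP2 siRNA libraries, 95.8% of NC.

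RAB6A siRNA libraries were also compared with SFRP2 siRNA libraries. This comparison leaves out the NC libraries, which both comparisons above share. Of the 10 genes 8 were called lower (35.8% of 12764 genes) and 1, Gbp8, higher (37.6%). The values were close to those against NC, with -2.41 for Irgm2, -2.22 for Iigp1, -2.14 for Ifi47 and -1.69 for Irgm1. Gbp5, at -0.08 (SE 0.0945, adjusted p = 0.472), was not called by limma, with a 95% interval of -0.30 to 0.14. Gbp7 was at -1.40, Gbp3 at -1.06, Igtp at -1.02, Gbp2 at -0.68 and Gbp8 at 1.1 in log2 fold change. The median of the 10 genes was -1.23, beside 0.03 over all genes tested. As the RAB6A siRNA libraries are the same in both comparisons, the likeness of the values is no separate evidence.

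The position of the genes shows that neighbours differed. In GENCODE M21 on GRCm38, Gbp5, Gbp7, Gbp3 and Gbp2 lie in this order on the + strand of chromosome 3 from 142493978 to 142638008, with Gbp2b between Gbp3 and Gbp2. Log2 fold changes in RAB6A siRNA ran -0.20, -1.31, -1.16, -1.84 (Gbp2b) and -0.74 along this cluster. Irgm1 and Ifi47 lie at the ends of a cluster on chromosome 11 from 48861968 to 49096974. All 7 of its genes tested were called lower, beside 36.5% of all genes tested. Of the 7, 5 (Gm5431, 9930111J21Rik1, 9930111J21Rik2, Tgtp1 and Tgtp2) share much of their sequence with another of them. Gm12250, Igtp and Irgm2 lie farther along chromosome 11, from 58187739 to 58222782. Iigp1 is found on chromosome 18 (+ strand), between 60376027 and 60392634. Each of the 10 genes is annotated as protein coding, and its FPKM is taken over exons.

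**Figure D4:**
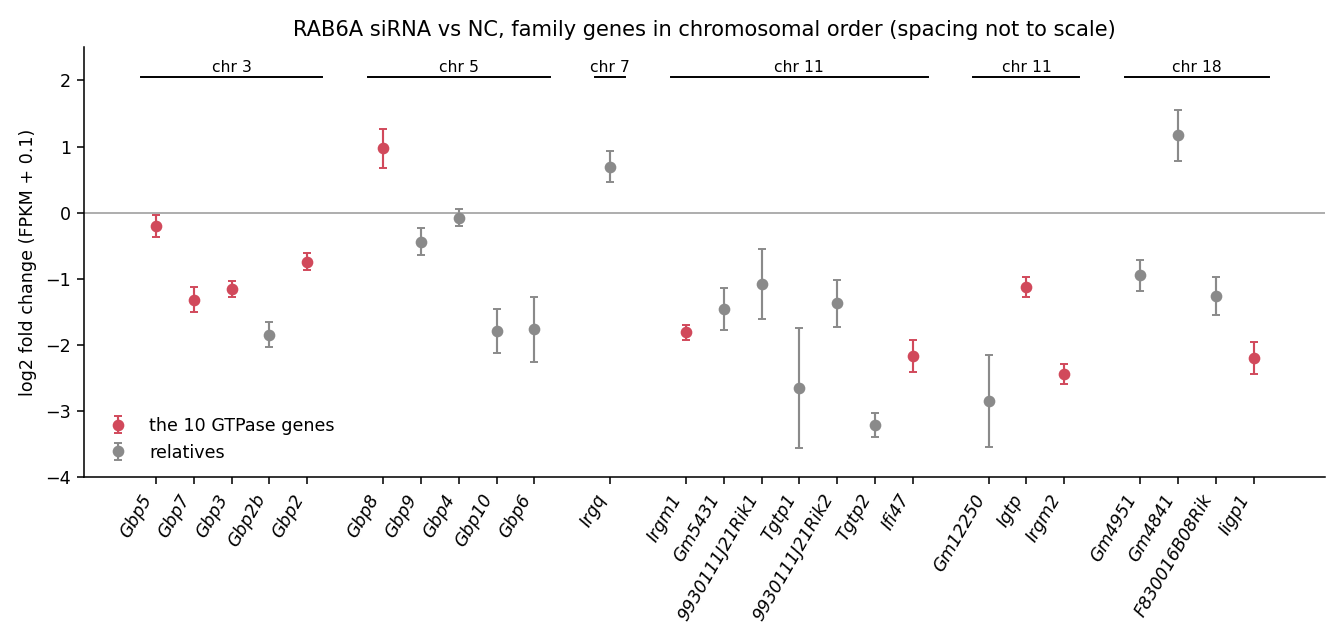
Log2 fold changes (FPKM + 0.1) with 95% intervals in RAB6A siRNA vs NC for the 10 GTPase genes (red) and their tested relatives (grey), ordered along the chromosomes and evenly spaced. Gbp8, Gm4841 and Irgq lie above 0, Gbp4 has an interval that holds 0, and the rest lie below 0.

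Most relatives outside the 10 genes were lower too. Of 18 listed GBP and IRG relatives 17 were found and 15 passed the filter. In RAB6A siRNA against NC, 12 of these were called lower and 2 higher, beside 36.5% and 37.6% of all genes tested. Their median log2 fold change was -1.37. The log2 fold change was past 1 in 10 of the lower and 1 of the higher genes, beside 12.8% lower and 17.3% higher over all genes tested. Tgtp2 (Irgb6), an effector IRG, went from 22.4 ± 0.971 FPKM in NC (SD, n = 3) to 2.35 ± 0.202, with a log2 fold change of -3.21 (limma, adjusted p = 5.13e-07). Tgtp1 (-2.65) shares 81.2% and Tgtp2 86.6% of their 50-base stretches with other genes, nearly all with each other. A large part of the reads of the pair could therefore be counted to either. Gm12250 (Irgb10), which attacks bacterial membranes and which GENCODE M21 lists as a processed pseudogene, was at 6.89 ± 0.867 FPKM in NC and 0.925 ± 0.396 in RAB6A siRNA libraries, from 22 to 52 reads in the latter. Gbp2b, the mouse GBP1, was above all 10 genes in NC at 159 ± 13.2 FPKM and came to 44.2 ± 2.76 (-1.84).

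None of the 4 tested GBPs beside Gbp8 was called higher. Gbp9 fell by 0.44 on the log2 scale, from 21.5 ± 0.558 to 15.9 ± 1.90 FPKM. Gbp4, at 17.6 ± 0.607 FPKM in NC and 16.7 ± 0.300 in RAB6A siRNA libraries, was not called (-0.07, adjusted p = 0.244 by limma). Gbp10 (-1.79) and Gbp6 (-1.76) were lower, and 84.1% and 70.7% of their 50-base stretches occur elsewhere, mostly in each other and in Gm43302. Gbp11, under the filter, had 34 to 43 reads in NC and 1 to 5 in RAB6A siRNA libraries (exact two-sided permutation test of FPKM, p = 0.1, the smallest that 3 against 3 allow). Among IRG relatives, Gm5431 (-1.46), 9930111J21Rik2 (-1.37), 9930111J21Rik1 (-1.08), F830016B08Rik (-1.26) and Gm4951 (-0.94) were called lower. 9930111J21Rik1 shares 82.9%, 9930111J21Rik2 59.2% and Gm5431 37.3% of their 50-base stretches with other genes, largely with each other, so that their values are uncertain and not separate observations. Gm4841 (1.17, from 0.778 ± 0.129 to 1.87 ± 0.246 FPKM) and Irgq (0.70, from 1.45 ± 0.110 to 2.41 ± 0.0491 FPKM) were called higher. Gvin1, a very large inducible GTPase, stayed at or under 0.61 FPKM in every library, and 99.2% of its 50-base stretches occur in other genes. No relative was called between SFRP2 siRNA and NC, where Tgtp2 had the smallest adjusted p of the list (-0.30 in log2 fold change, adjusted p = 0.178 by limma).

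Of 19 tested genes of interferon signalling, 9 were called lower and 5 higher in RAB6A siRNA against NC, with a median log2 fold change of -0.18. Over all genes 36.5% were called lower and 37.6% higher in this comparison. Its counts, here and in the lists that follow, are therefore not read as particular to a list. Irf1, a transcription factor that binds ISRE elements, was at 31.4 ± 0.368 FPKM in NC, 25.4 ± 1.29 in SFRP2 siRNA and 14.7 ± 0.513 in RAB6A siRNA libraries (SD, n = 3), and fell by 1.09 on the log2 scale between NC and RAB6A siRNA. Socs3, a feedback inhibitor of cytokine receptors, was lower (-0.99), and Ifnar1, a subunit of the type I interferon receptor, was higher (0.89). Ifnb1, the type I ligand, had 6 to 20 reads in NC and 14 to 36 in RAB6A siRNA libraries and was not called (0.97, adjusted p = 0.079 by limma). Ifng was not analysed here. No gene of this list was called in SFRP2 siRNA against NC (18 tested, median log2 fold change -0.03).

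Of 13 tested genes known to respond to IFN-γ other than the GTPases, 4 were called higher and 4 lower, with a median log2 fold change of -0.06. Cd74, the invariant chain of MHC class II, rose by 1.79 on the log2 scale, from 66.6 ± 7.0 to 231 ± 8.17 FPKM, and H2-Ab1, a class II chain, rose by 1.52, from 0.494 ± 0.151 to 1.59 ± 0.284. Cxcl10, a chemokine, fell by 1.14, from 104 ± 3.85 to 47.2 ± 5.30 FPKM. Ciita, the transactivator of class II genes, was at 0 to 4 reads in NC and RAB6A siRNA libraries and 0 to 2 in SFRP2 siRNA libraries, near or under the detection limit. In SFRP2 siRNA against NC, no gene of this list was called and the smallest adjusted p was 0.163 by limma. Of the 13 genes, 12 had a lower mean in SFRP2 siRNA libraries, 8 had an unadjusted p under 0.05 and a lower level (10.7% of all genes tested), and the median log2 fold change was -0.19. Irf1 belongs to this list as well as to interferon signalling.

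The machinery around the GTPases was counted too. Of the 10 genes of ATG8 conjugation, which the cell uses to load GBPs and IRGs onto vacuoles, 6 were called higher and 3 lower in RAB6A siRNA against NC, with a median log2 fold change of 0.49. The highest were Map1lc3a (1.47), Map1lc3b (1.15) and Gabarap (0.82), all of them ATG8 proteins themselves. Of 6 genes for prenylation of CaaX proteins such as Gbp2 and Gbp5, 2 were called higher and 3 lower. Zmpste24, a protease of this route, was lowest at -1.40, beside Fntb, the farnesyltransferase subunit, at -0.54 and Icmt, the methyltransferase, at 0.54. Of 7 tested genes downstream of GBPs in the cytosolic LPS route, 3 were called higher and 2 lower. Nlrp3, the inflammasome sensor, fell by 3.02 on the log2 scale, from 65.9 ± 1.47 to 8.08 ± 0.961 FPKM. Aim2, the sensor of cytosolic DNA, rose by 0.93 and Gsdmd, the pore-forming substrate of caspase-11, by 0.56. No gene of these 3 lists was called between SFRP2 siRNA and NC.

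**Figure D5:**
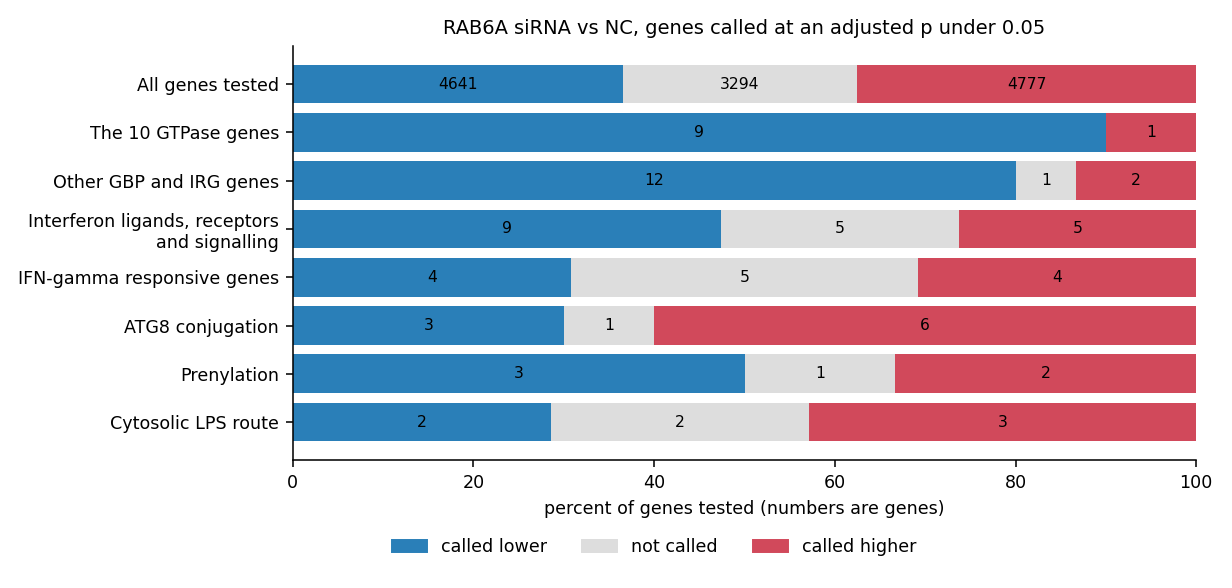
Percent of tested genes called lower (blue), not called (grey) and called higher (red) at an adjusted p under 0.05 in RAB6A siRNA vs NC, for all genes tested, the 10 GTPase genes and 6 lists, with the number of genes in each part of a bar. The 10 GTPase genes (9 lower, 1 higher) and the other GBP and IRG genes (12 lower, 2 higher) have the largest shares called lower among the bars shown.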

How the data were processed

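RNA-seq was done on 9 RAW264.7 libraries in 3 siRNA groups of 3, grouped by their labels. The authors deposited FPKM values per Ensembl gene. According to the labels they used HISAT2 and featureCounts of Subread, with versions, genome build and annotation not given in the sources used here. GENCODE M21 named 27533 of the 28137 identifiers, and 604 stayed without a name. Whole reads could be recovered from the FPKM steps, within 0.03 of a read, for 98.4% of the named genes. Totals per library ran from 32758729 to 47149258 reads, and low genes are limited by counting error.

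Values were tested as log2(FPKM + 0.1) with limma 3.58.1 (R 4.3.3, lmFit and eBayes with trend) on the 6 libraries of each comparison, for genes with a mean of at least 0.5 FPKM, and p-values were adjusted by Benjamini-Hochberg over all genes tested. Genes were called at an adjusted p under 0.05. Intervals are 95%. Motifs and shared 50-base stretches were found in Python 3.11.15.

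The members and lists were chosen with earlier results of these data known. Named are all 10 members, the targeted genes, every relative found, up to 3 called genes of largest log2 fold change in each other list for RAB6A siRNA vs NC, and Ifng, Ifnb1, Ciita and Irf1. A further gene that the rule names is not reported here. The genes of the motif layout, Gm12185, Gm43302 and Gm43802 were named after their values were seen. Alternatives, one at a time, changed the pseudocount (to 0.01 or 1), dropped the filter on low values or raised it to 1 FPKM, left out each library in turn, scaled libraries by median ratios or by quantiles, fitted with no trend in eBayes, fitted all 9 libraries jointly, took the replicate number as a block, corrected for GC content and gene length, or applied voom to the recovered reads. Same-numbered libraries did not deviate together (correlations -0.085 to 0.048), so the numbers were not taken to pair them.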

Additional observations from a re-analysis of the deposited data

How the results depend on the processing

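Between RAB6A siRNA and NC, 9 or 10 of the 10 genes were called under every alternative, and Gbp5 was the one lost. Calls were common over all genes tested as well, such as 8807 of 12794 without NC replicate 2 and 10934 of 27077 with no filter on low values. The log2 fold change of Gbp5 turned to 0.0966 with the GC content and length correction. Against SFRP2 siRNA it turned to 0.2106 with that correction and to 0.0363 with quantile normalization. Its adjusted p against NC ran from 0.0171 to 0.547 over the alternatives. Against SFRP2 siRNA 9 of the 10 genes were called under every alternative. Between SFRP2 siRNA and NC none of the 10 was called under any, while the count over all genes was 41 with voom on recovered reads, 2 with the GC content and length correction and 0 to 1 as each library was left out (1 without NC replicate 1). Directions of values near 0 turned in that comparison. Irgm2 came to 0.0059 with quantile normalization, and Gbp7 to -0.0202 and Iigp1 to -0.1287 with the GC content and length correction. With each library left out, Iigp1 ran from -0.084 to 0.2023 and Ifi47 from -0.0987 to 0.0643. The cause of these shifts was not tested. Gbp8 was under the filter at a mean FPKM of at least 1 in SFRP2 siRNA vs NC and has no value there.

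With the replicate number as a block, 0 genes were called in SFRP2 siRNA vs NC, 9103 in RAB6A siRNA vs NC and 9159 in RAB6A siRNA vs SFRP2 siRNA, with 0, 9 and 9 of the 10 genes among them. Gbp5 in RAB6A siRNA vs NC was the call of a member lost under the block (adjusted p = 0.0596 by limma). Depth limits Gbp8, with 94 to 254 reads per library, more than any other member.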
